A study of Mus musculus with 10 samples.

Results

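Adipoq, the gene of the adipocyte hormone adiponectin, lies on mouse chromosome 16 near a run of liver-type genes and several more widely expressed ones. The 8 genes described here are those neighbours: Ahsg, Fetub, Hrg, Kng2, Kng1, Eif4a2, Rfc4 and St6gal1. They were chosen by symbol and position, with earlier results of these data known, and do not include every gene near Adipoq. All 8 were found among the 26040 genes counted. RNA was sequenced from epididymal white adipose tissue, a visceral fat depot next to the epididymis, in C57BL/6 mice. The knockout group held 5 libraries from mice with adipocyte-specific loss of the succinate receptor gene Sucnr1 (Ad-Sucnr1 KO), and the control group held 5 libraries from Sucnr1fl/fl mice, whose floxed alleles carry recombinase sites but are not deleted. The labels give neither the age or diet of the mice nor the promoter that drove the recombinase.

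The neighbours of Adipoq are of interest because deletion in adipocytes is commonly made with Cre recombinase under Adipoq regulatory sequence. Such transgenes are often built on bacterial artificial chromosomes, long genomic inserts that can carry neighbouring genes along with the promoter. Whether these mice held additional copies of any gene was not tested. Of the 8 genes, Eif4a2 encodes an RNA helicase of translation initiation, Rfc4 a subunit of the clamp loader of DNA replication, and St6gal1 a Golgi enzyme that adds sialic acid to glycoproteins. The other 5 encode plasma proteins of the cystatin superfamily that liver secretes: the fetuins Ahsg and Fetub, histidine-rich glycoprotein (Hrg) and the kininogens Kng1 and Kng2, precursors of bradykinin.

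In mm10 coordinates with GENCODE M21 gene models, the liver-type genes come first along the chromosome. Ahsg (ENSMUSG00000022868) spans chr16:22891277-22899449 on the plus strand, and Fetub (ENSMUSG00000022871) spans chr16:22918334-22939778 on the same strand. Hrg (ENSMUSG00000022877) spans chr16:22951072-22961656 on the plus strand, and Kng2 (ENSMUSG00000060459) spans chr16:22985854-23029482 on the minus strand. Kng1 (ENSMUSG00000022875) spans chr16:23057865-23082078 on the plus strand. Eif4a2 (ENSMUSG00000022884), on the plus strand at chr16:23107444-23114136, and Rfc4 (ENSMUSG00000022881), on the minus strand at chr16:23113943-23127737, run towards each other and overlap by 194 bases at their ends. Adipoq (ENSMUSG00000022878) spans chr16:23146536-23158028, 18.8 kb beyond Rfc4, and St6gal1 (ENSMUSG00000022885) spans chr16:23224740-23360350, 66.7 kb beyond Adipoq, both on the plus strand. Ahsg, the farthest member, ends 247 kb before Adipoq.

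RefSeq entries on GRCm38.p6, from 250 bases before to 50 bases after an annotated start, were found for 7 of the 8 genes, all but Kng1. The sequences of Eif4a2 and Rfc4 are shown because these were the members whose groups did not overlap, and those of Fetub and Hrg as examples of liver-type members, the ones with a TATA box. Capitals mark the GC box GGGCGG, the TATA box TATAAA and the CCAAT box CCAAT on either strand. The windows are chr16:23107218-23107517 on the plus strand for Eif4a2, chr16:23127681-23127980 on the minus strand for Rfc4, chr16:22918132-22918431 on the plus strand for Fetub and chr16:22950822-22951121 on the plus strand for Hrg.
Eif4a2: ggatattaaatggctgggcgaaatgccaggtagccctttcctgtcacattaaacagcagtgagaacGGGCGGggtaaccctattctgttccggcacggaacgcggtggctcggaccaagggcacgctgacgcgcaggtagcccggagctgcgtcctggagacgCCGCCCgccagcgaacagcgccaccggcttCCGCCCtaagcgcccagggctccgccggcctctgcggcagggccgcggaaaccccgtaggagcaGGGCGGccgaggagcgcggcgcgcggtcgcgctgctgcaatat
Rfc4: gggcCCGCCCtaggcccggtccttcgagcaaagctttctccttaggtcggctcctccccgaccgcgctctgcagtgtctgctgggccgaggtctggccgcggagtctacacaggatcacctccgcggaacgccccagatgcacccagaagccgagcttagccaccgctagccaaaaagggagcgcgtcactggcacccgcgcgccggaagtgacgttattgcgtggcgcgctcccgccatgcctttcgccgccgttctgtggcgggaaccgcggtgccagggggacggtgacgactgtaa
Fetub: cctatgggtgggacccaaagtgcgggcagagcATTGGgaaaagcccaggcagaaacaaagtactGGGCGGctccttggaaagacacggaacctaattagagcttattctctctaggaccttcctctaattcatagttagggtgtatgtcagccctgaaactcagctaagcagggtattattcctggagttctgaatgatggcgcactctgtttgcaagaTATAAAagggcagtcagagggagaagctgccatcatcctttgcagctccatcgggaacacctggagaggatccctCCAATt
Hrg: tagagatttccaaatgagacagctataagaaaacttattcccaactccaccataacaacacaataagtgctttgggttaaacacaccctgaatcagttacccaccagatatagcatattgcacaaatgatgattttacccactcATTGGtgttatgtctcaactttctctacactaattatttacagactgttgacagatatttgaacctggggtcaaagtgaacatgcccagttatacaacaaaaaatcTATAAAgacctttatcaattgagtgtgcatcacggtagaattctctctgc

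The Eif4a2 promoter held 4 GC boxes and the Rfc4 promoter 1, and neither held a TATA or CCAAT box. Their CpG ratios (observed over expected) were 1.05 and 1.00, against a median of 0.384 over 32851 RefSeq promoters. Among the liver-type genes that ratio was 0.10 for Hrg, 0.13 for Kng2, 0.33 for Ahsg and 0.27 and 0.45 for the 2 entries of Fetub. The Fetub promoter shown held 1 GC box, 1 TATA box and 2 CCAAT boxes, and the Hrg promoter held 1 TATA box and 1 CCAAT box. Of all promoters, 35.7% held a GC box, 13.6% a TATA box and 37.4% a CCAAT box, so each motif is common and a match describes the letters only.

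The libraries held between 24182798 and 30603326 counts, and 16446 genes had enough counts to be tested. Sucnr1 ranged from 2.05 to 4.67 CPM in the knockout libraries and from 38.0 to 75.9 CPM in the control libraries, where CPM is the count scaled to a common library size. Markers of other tissues stood apart in some libraries. Alb, the albumin gene of liver, stood at 4310 CPM in knockout library 6 and at most 83.1 CPM in the other 9 libraries. The epididymal gene Crisp1 reached 971 CPM in knockout library 2 and 3574 CPM in knockout library 3. Controls 2, 3 and 6 held 1049, 2715 and 8572 CPM of it, and the remaining 5 libraries at most 184 CPM. Adipoq, a defining adipocyte gene, averaged 2703 ± 300.0 CPM in knockout libraries and 2479 ± 806 CPM in control libraries (SD, n = 5 each).

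Eif4a2 and Rfc4 stood higher in every knockout library than in any control library. The 5 liver-type genes were carried by knockout library 6, and St6gal1 by knockout library 3 and control library 6. No member passed an adjusted p of 0.05 over all genes with edgeR's quasi-likelihood test, which called 0.0608% of all genes (0.0243% higher and 0.0365% lower in the knockout group). At an unadjusted p under 0.05 there were 4 members, Eif4a2, Rfc4, Kng1 and Kng2, all higher in the knockout group, against 10.1% of all genes (5.36% higher and 4.77% lower). DESeq2 called Eif4a2 and Rfc4 at an adjusted p of 0.05, against 1.41% of the genes to which it gave an adjusted p (0.861% higher), and limma-voom called no member, against 0.0547% of all genes. The members whose groups did not overlap were these same 2 genes of 8, against 1.91% of tested genes (1.01% higher and 0.9% lower). Of the 7 tested members, 6 had a log2 fold change above 0, against 44.8% of tested genes, and 4 had one without knockout library 6. Of the 8 members, 7 passed the filter on low counts, and Hrg did not.

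Eif4a2 was the most abundant member. Its paralog Eif4a1 supplies the same helicase activity in the cap-binding complex eIF4F, which recruits ribosomes to mRNA. Eif4a2 stood at 494.6, 540.5, 446.5, 537.8 and 505.5 CPM in knockout libraries 2 to 6. Controls 2 to 6 had 372.4, 332.6, 412.6, 352.5 and 417.7 CPM. The lowest knockout library, number 4, lay above the highest control library, number 6. Knockout libraries averaged 505 ± 38 CPM and control libraries 378 ± 37 CPM (SD, n = 5 each), a 1.34-fold difference. On the log2 scale the difference was 0.42 (SE 0.09), with edgeR's adjusted p = 0.318 over all genes and DESeq2's adjusted p = 0.000714. By the unadjusted edgeR p, Eif4a2 ranked 63 among 16446 genes. An exact two-sided permutation test of the log2 CPM gave p = 0.00794, the smallest value that 252 assignments of 5 against 5 libraries allow. Groups that do not overlap always give this p, so the test restates the separation. This test, with no adjustment, was made for 115 members, neighbours and listed genes, and 9 of them gave that smallest p.

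Per kilobase of exon, Eif4a2 averaged 94.6 ± 7.2 CPM in knockout libraries and 70.7 ± 7.0 CPM in control libraries (SD, n = 5 each). On the same per-length scale Eif4a1 averaged 57.4 and 57.1 CPM in the knockout and control groups, and Eif4a3, the paralog of the exon junction complex, averaged 17.0 and 18.5 CPM. The log2 fold changes of Eif4a1 and Eif4a3 were 0.01 and -0.12, with standard errors of 0.07 and 0.08. Among the 15 genes listed for the initiation machinery, all of them tested, 12 had higher and 3 had lower levels in knockout libraries, and their median difference was 0.07 (log2), against -0.03 over all tested genes. None passed with edgeR. DESeq2 called 1, Eif4a2 itself, and at an unadjusted edgeR p under 0.05 there were 2, Eif4a2 and Pdcd4. Pdcd4, an inhibitor of the eIF4A helicases, averaged 79.0 ± 8.8 CPM in knockout libraries and 68.8 ± 2.4 CPM in control libraries (SD, n = 5 each), at edgeR's adjusted p = 0.458. Eif4e3, a relative of the cap-binding protein, had a difference of 0.30 on the log2 scale at an edgeR adjusted p of 0.517.

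Rfc4 was a low transcript with the same separation of the groups. Its protein is a subunit of replication factor C, which loads the sliding clamp PCNA onto DNA. Rfc4 stood at 4.03, 4.72, 5.00, 4.37 and 5.21 CPM in knockout libraries 2 to 6. Control libraries 2 to 6 had 3.43, 3.77, 3.23, 2.64 and 2.81 CPM. These values rest on 115 to 154 counts per knockout library and 70 to 102 counts per control library, and the lowest knockout library lay above the highest control library. Knockout libraries averaged 4.67 ± 0.48 CPM and control libraries 3.17 ± 0.46 CPM (SD, n = 5 each), a 1.47-fold difference. On the log2 scale the difference was 0.56 (SE 0.14), with edgeR's adjusted p = 0.36 and DESeq2's adjusted p = 0.0175. The exact permutation test again gave its smallest p of 0.00794, which the separation of the groups fixes. Because Eif4a2 and Rfc4 overlap at their ends on opposite strands and the strand setting of the counting is not given, the gene of reads in those 194 bases is uncertain. Eif4a2 is far more abundant per length, at 94.6 CPM per kilobase in knockout libraries, where Rfc4 averaged 3.05 CPM per kilobase.

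The partners of Rfc4 did not separate the groups. Of 11 listed clamp loader and clamp genes, 5 had higher and 6 had lower levels in knockout libraries, and their median difference was -0.01 (log2). Without control library 6, 8 were higher and 3 lower. None passed with edgeR, and Rfc4 was the only one called by DESeq2. Rfc1, Rfc2 and Rfc3 had log2 fold changes of 0.04, -0.02 and -0.01, and Pcna, the clamp, had -0.03. Rfc5 had -0.23 with an edgeR adjusted p of 0.759, and Dscc1, a subunit of an alternative loader for cohesion, had 0.64 with an edgeR adjusted p of 0.57. Of 13 proliferation genes, 1 was higher and 12 were lower, none called by either tool. Without control library 3, 6 were higher and 7 lower. The gene higher in the knockout group, Mcm7, had a log2 fold change of 0.22 and Mcm2 had -0.50 (edgeR adjusted p of 0.482 and 0.506).

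**Figure D1:**
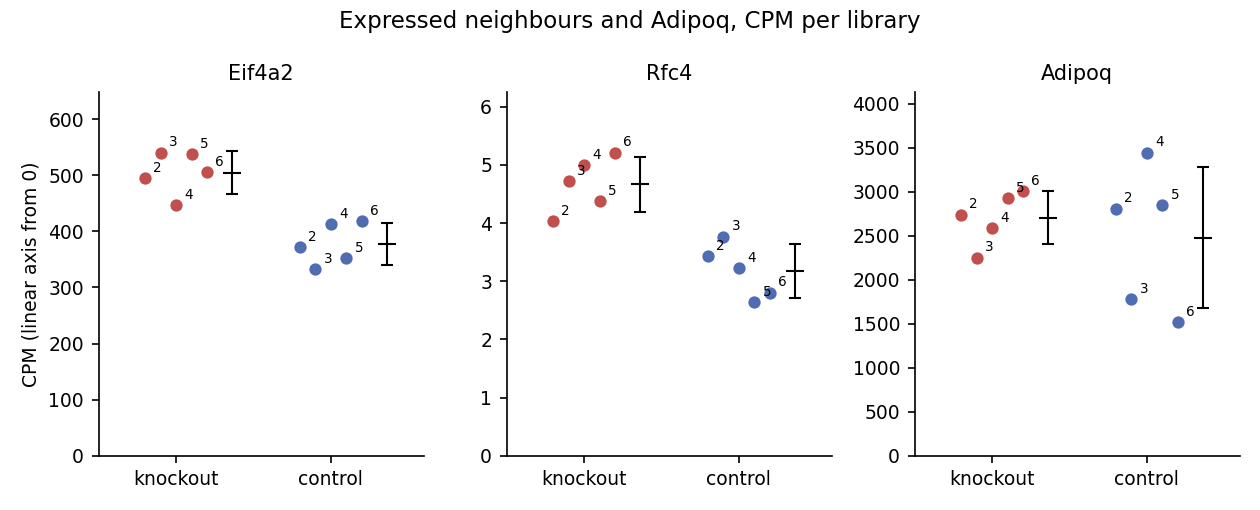
CPM of Eif4a2, Rfc4 and Adipoq in each library, on linear axes from 0. Points are libraries labelled with their replicate number, and the bar beside each group gives the mean and SD of 5 libraries. For Eif4a2 and Rfc4 each knockout point lies above each control point, while for Adipoq the knockout libraries (2251 to 3003 CPM) lie inside the control range (1516 to 3444 CPM).

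Across the 10 libraries, log2 CPM of Eif4a2 and Rfc4 correlated with r = 0.68, a value that includes the difference between the groups. The genes outside the 1 Mb window with the pattern most like Eif4a2 were Tent4b, Rev1 and Mrps9, with Pearson's r of 0.964, 0.942 and 0.938. Those most like Rfc4 were Zfp653, Rpp25l and Appbp2, with r of 0.904, 0.897 and 0.891. The median r over all tested genes was -0.0117 for Eif4a2 and -0.0212 for Rfc4. The 2 lists of nearest genes share no name.

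Adipoq itself, between these genes and St6gal1, overlapped between the groups. It stood at 2740, 2251, 2590, 2930 and 3003 CPM in knockout libraries 2 to 6. Control libraries 2 to 6 held 2808, 1778, 3444, 2848 and 1516 CPM. The knockout libraries lay inside the control range, and control libraries 3 and 6, both rich in Crisp1, were the lowest. On the log2 scale the difference was 0.12 (SE 0.22, edgeR adjusted p = 0.845). It was -0.01 without control library 6 and -0.25 once the adipocyte score entered the fit. In whole tissue, fewer adipocytes and less RNA per adipocyte cannot be told apart.

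The 5 liver-type genes were far higher in knockout library 6 than anywhere else. Kng1 stood at 225 CPM, Ahsg at 202 CPM, Kng2 at 69.1 CPM, Hrg at 29.9 CPM and Fetub at 12.7 CPM in that library. In the other 9 libraries none of the 5 passed 3.76 CPM. The listed liver genes summed to 4435 to 16090 CPM in knockout libraries, highest in library 6, and to 3179 to 6741 CPM in control libraries. Of these genes, Cyp2e1, C3 and Hp averaged 2534, 1737 and 1363 CPM in knockout libraries and 1461, 1514 and 1428 CPM in control libraries. Of the 23 tested liver genes, 22 had higher and 1 had lower levels in knockout libraries, and their median difference was 3.92 (log2). Without knockout library 6, 2 were higher and 21 lower, and the median was -0.54. None passed with edgeR. DESeq2 gave an adjusted p to Hp, C3 and Cyp2e1 alone, so not to Alb or Tat, and called none. Of the 23, 5 had an unadjusted edgeR p under 0.05, all higher in the knockout group. Alb and Tat, an enzyme of tyrosine breakdown, had the smallest p of them, with log2 fold changes of 4.44 and 4.02 that turned to -0.55 and -0.27 without knockout library 6.

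The kininogens remained detectable outside that library. In the kinin system, kallikrein cleaves kininogen to release bradykinin, which acts on the receptors Bdkrb1 and Bdkrb2. Kng1 stood at 0.49, 0.51, 2.41 and 0.64 CPM in knockout libraries 2 to 5, on 14 to 67 counts each. Among controls 2 to 6 the values were 0.24, 0.19, 1.45, 1.58 and 0.39 CPM, on 5 to 42 counts each. Knockout library 4 and control libraries 4 and 5 were the higher ones, so the groups overlapped. The log2 fold change of Kng1 was 5.89 (SE 2.10) over all libraries (edgeR adjusted p = 0.436). Without knockout library 6 it was 0.39 (SE 0.77, adjusted p = 0.914).

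Kng2 stood at 1.37, 1.10, 2.70 and 1.07 CPM in knockout libraries 2 to 5. The 5 controls, 2 to 6, had 0.94, 1.12, 1.28, 1.62 and 0.70 CPM. The groups overlapped here too. The log2 fold change of Kng2 was 3.73 (SE 1.35, edgeR adjusted p = 0.436), and 0.46 (SE 0.35) without knockout library 6 (adjusted p = 0.807). The mouse kininogens are close paralogs, so reads may be split between them in ways the counting does not show, and the pseudogene Gm6493 lies within Kng2 on the same strand.

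Set against albumin, each knockout library held more Kng1 than any control library. Kng1 had 29.1, 27.2, 38.8, 45.7 and 52.2 counts per 1000 Alb counts in knockout libraries 2 to 6. Values of control libraries 2 to 6 were 18.0, 22.1, 17.5, 22.7 and 13.0. In knockout libraries 2, 3 and 5 and control libraries 2, 3 and 6 the ratio rests on 5 to 18 Kng1 counts, and it was formed after the values were seen, so it is given with no test. Among 22 other listed liver genes, 0 separated the groups in their ratio to Alb in either direction. That comparison is limited. Hp, C3 and Cyp2e1 stood at 802, 1057 and 870 CPM or more in every library, and others of the 22 had 0 counts in some libraries. With the liver marker score as a covariate, the log2 fold change of Kng1 was 1.32 (SE 0.24, edgeR adjusted p = 0.237 over all genes). In the same fit Kng2 had 0.88 (SE 0.41, adjusted p = 0.648).

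The other liver-type members overlapped between the groups in their ratio to Alb. Ahsg had 8.30 to 46.9 counts per 1000 Alb counts in knockout libraries and 20.1 to 45.2 in control libraries. Kng2 had 16.03 to 80.9 in knockout libraries and 15.4 to 128 in control libraries. Hrg had 0 in 3 knockout libraries and 1 control library, and between 2.57 and 10.4 in the others. Fetub had 2.32 to 52.6 in knockout libraries and 8.66 to 195 in control libraries.

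**Figure D2:**
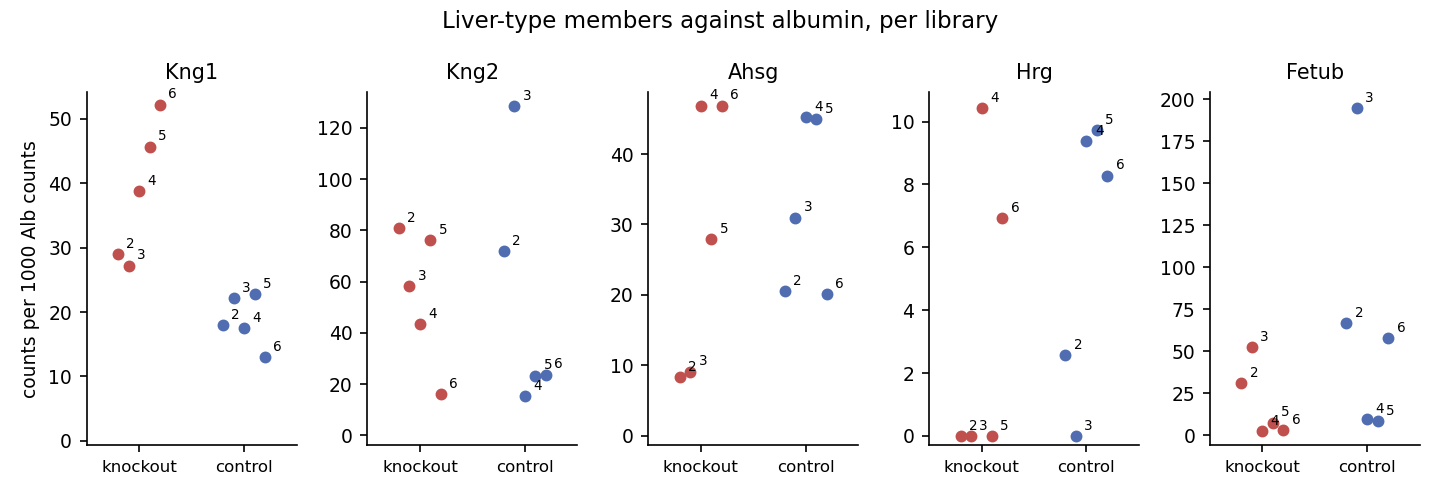
Counts of the 5 liver-type genes per 1000 Alb counts in each library, on linear axes. Points are libraries labelled with their replicate number. Kng1 lies at 27.2 to 52.2 in knockout libraries, above the control range of 13.0 to 22.7, and the groups overlap for the other 4 genes.

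Ahsg, whose protein fetuin-A binds calcium phosphate and inhibits insulin receptor signalling, was highest in the libraries with the most albumin RNA. It stood at 0.14, 0.17, 2.91 and 0.39 CPM in knockout libraries 2 to 5. Controls 2 to 6 had 0.27, 0.27, 3.76, 3.13 and 0.60 CPM. Knockout library 4 and control libraries 4 and 5, which held 62.2, 83.1 and 69.7 CPM of Alb, were the higher ones. The log2 fold change of 4.68 (SE 2.12, edgeR adjusted p = 0.497) became -0.83 without knockout library 6 (adjusted p = 0.896). The genes most like Ahsg over the 10 libraries were Mug2, Apob and Mup9, with Pearson's r of 0.992, 0.991 and 0.99, all plasma protein or urinary protein genes of liver. Among the genes most like Kng1 were Abcc2 and Alb (r of 0.983 and 0.981), and Kng2 was most like Upb1, Tat and Serpinc1 (0.984, 0.977 and 0.976). Each of these values includes knockout library 6.

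Hrg, which binds heparin, plasminogen and zinc in plasma, was at the limit of detection. It had 0, 0, 18 and 0 counts in knockout libraries 2 to 5 and 883 in knockout library 6. Control libraries 2 to 6 had 1, 0, 22, 18 and 7 counts. A count of 0 allows up to 3 counts, which is 0.102 to 0.115 CPM at these depths, by counting error alone. Hrg had its highest counts in the same libraries in which Ahsg was higher, and it was not tested.

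Fetub, an inhibitor of the egg protease ovastacin, had another order outside knockout library 6. It stood at 0.53, 0.99, 0.14 and 0.11 CPM in knockout libraries 2 to 5 and at 12.7 CPM in knockout library 6. Control libraries 2 to 6 held 0.88, 1.69, 0.82, 0.60 and 1.72 CPM. Apart from knockout library 6, the highest values were in control libraries 3 and 6 and knockout library 3, the libraries with the most Crisp1. On the log2 scale the difference was 1.34 (SE 1.17, edgeR adjusted p = 0.698), and -1.35 without knockout library 6 (adjusted p = 0.704). The genes most like Fetub were Ces2e, Slc27a2 and Slc47a1, with Pearson's r of 0.964, 0.956 and 0.933.

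Of 14 listed genes of the kinin and contact system, 11 were tested, 7 of them higher and 4 lower in the knockout group, and their median difference was 1.29 (log2). Without knockout library 6, 5 were higher and 6 lower, and the median was -0.10. None passed with edgeR, and 3 had an unadjusted p under 0.05, the kininogens and Cpn2. Cpn2, the regulatory subunit of the kinin-degrading carboxypeptidase N, lies on chromosome 16 as well, 7098 kb beyond Adipoq. DESeq2 called Cpn2 (adjusted p = 0.0143, edgeR adjusted p = 0.372). It stood at 0.98, 0.48, 1.40, 0.89 and 9.78 CPM in knockout libraries 2 to 6. Among controls 2 to 6 the values were 0.37, 0.23, 0.32, 0.41 and 0.11 CPM, so the groups did not overlap. Its log2 fold change was 3.21, and 1.69 without knockout library 6 (edgeR adjusted p = 0.622). The receptor Bdkrb2 had 1.63 ± 0.24 CPM in knockout libraries and 2.09 ± 0.31 CPM in control libraries (SD, n = 5 each; edgeR adjusted p = 0.515).

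**Figure D3:**
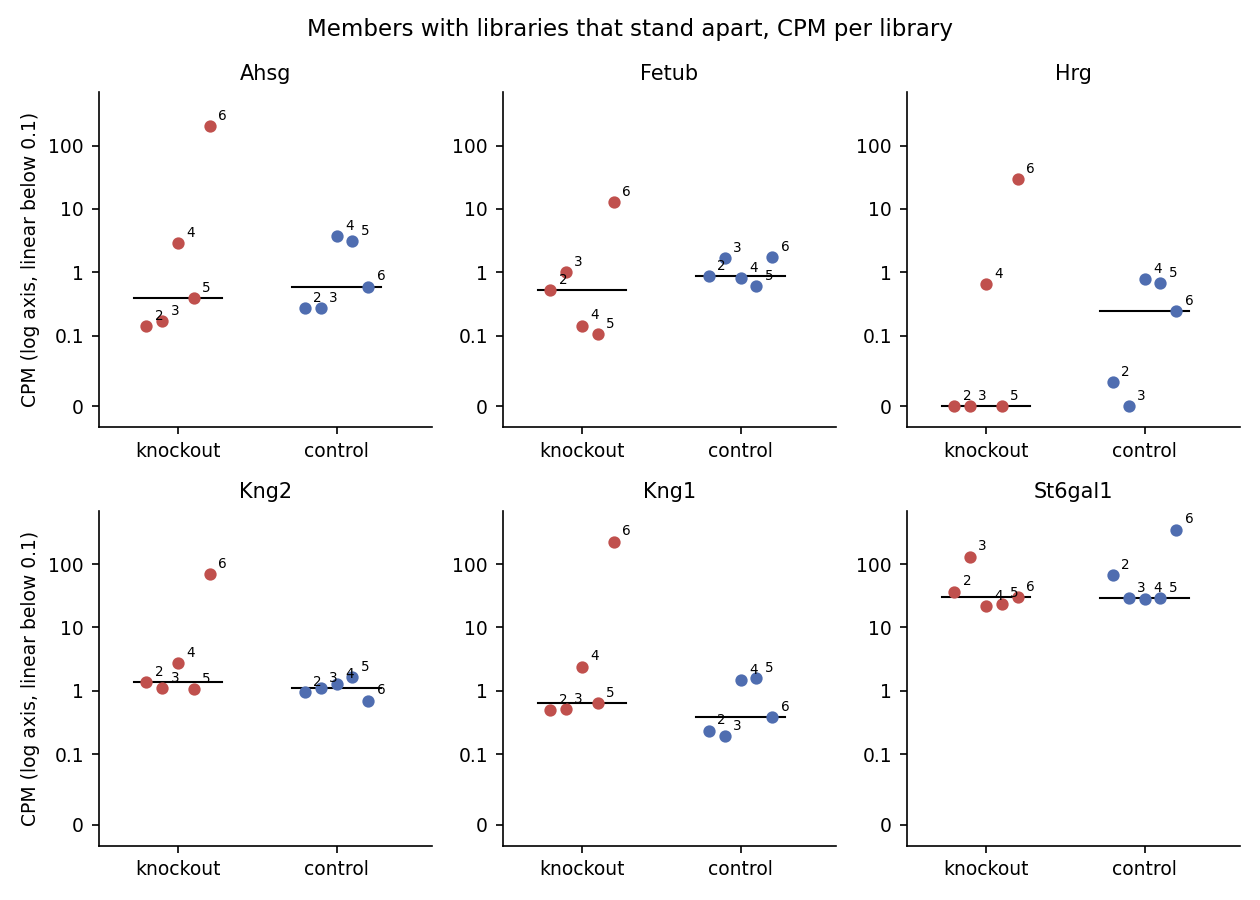
CPM of Ahsg, Fetub, Hrg, Kng2, Kng1 and St6gal1 in each library, on log axes that turn linear below 0.1 CPM. Points are libraries labelled with their replicate number and lines are group medians. Knockout library 6 stands apart for the 5 liver-type genes (12.7 to 225 CPM), and knockout library 3 and control library 6 for St6gal1 (131.5 and 350 CPM).

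St6gal1 was high in 1 library of each group. Its enzyme adds α2,6-linked sialic acid to glycoproteins, and it is abundant in liver and B cells. St6gal1 stood at 36.8, 131.5, 21.5, 23.7 and 30.5 CPM in knockout libraries 2 to 6. The 5 controls, 2 to 6, had 67.6, 29.3, 28.4, 29.1 and 350 CPM. Control library 6 and knockout library 3, which held the most Crisp1, were the highest, while control library 3 with 2715 CPM of Crisp1 stood among the low ones. Knockout library 6, with the most Alb, stood at its group's median. The median was 30.5 CPM over knockout and 29.3 CPM over control libraries. On the log2 scale the difference was -1.05 (SE 0.88, edgeR adjusted p = 0.691), and it turned to 0.33 without control library 6 and to 0.66 once the adipocyte score entered the fit.

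The genes most like St6gal1 over the 10 libraries were Gdap1, Enpp5 and Btg3, with Pearson's r of 0.986, 0.986 and 0.984. Their log2 fold changes were -1.29, -0.44 and -0.74. Of 13 listed genes of epididymis and vas deferens, 6 were tested and all 6 were lower in the knockout group, and their median difference was -1.43 (log2). Without control library 6, 3 were higher and 3 lower, and the median was 0.40. Their summed level ranged from 2.16 to 4540 CPM in knockout libraries and from 20.5 to 11210 CPM in control libraries. None passed with edgeR, and Akr1b7, abundant in vas deferens, was called by DESeq2 alone (log2 fold change -8.37, adjusted p = 0.0111). It stood at 0.203 to 10.07 CPM in knockout libraries, against 807.5 and 5106 CPM in control libraries 2 and 3 and 0 to 13.88 CPM in the other controls, so the groups overlapped, and without control library 3 its log2 fold change was -5.85 (edgeR adjusted p = 0.681). Defb48, an epididymal defensin, had -1.47 (edgeR adjusted p = 0.749). With the epididymal score as a covariate, the log2 fold change of St6gal1 was -0.28. Of 9 tested B cell genes, all were lower in the knockout group and none was called. Their summed level was 23.3 to 50.4 CPM in knockout libraries and 35.9 to 58.9 CPM in control libraries, with no library standing apart as St6gal1 did.

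**Figure D4:**
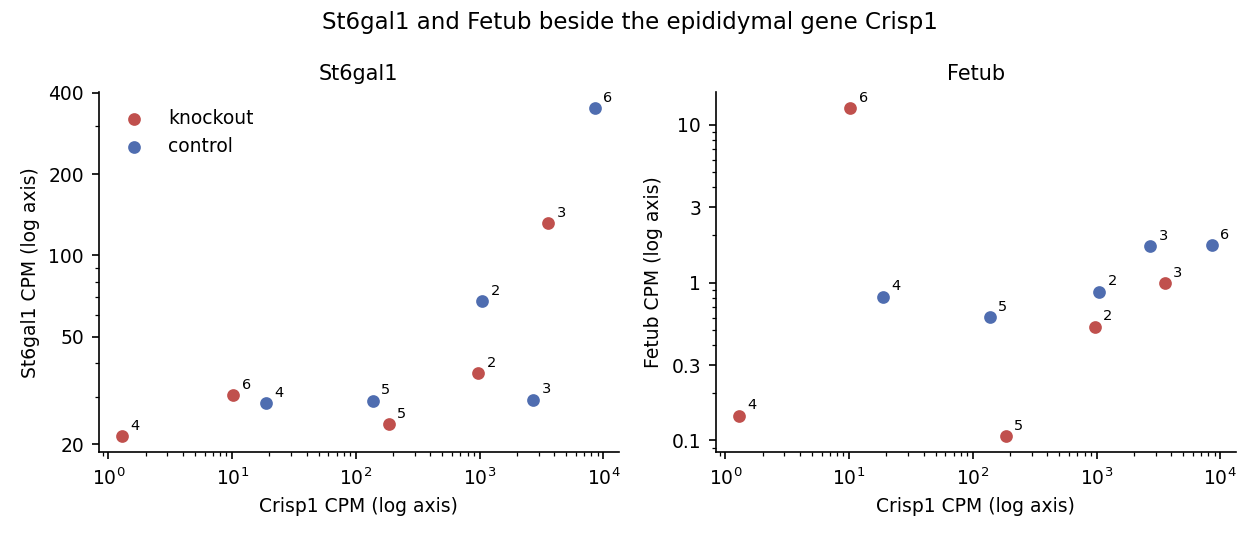
Levels in CPM of St6gal1 and Fetub against Crisp1 CPM in each library, on log axes. Points are libraries labelled with their replicate number. Control library 6 and knockout library 3 lie at the top right for St6gal1, control library 3 does not, and Fetub has its highest value in knockout library 6, which has 10.2 CPM of Crisp1.

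Of 19 listed sialyltransferases, 17 were tested, 6 higher and 11 lower in the knockout group, and their median difference was -0.09 (log2). None passed with edgeR, and 2 had an unadjusted p under 0.05, both lower. St6galnac6, which sialylates gangliosides, averaged 22.1 ± 1.3 CPM in knockout libraries and 27.1 ± 2.5 CPM in control libraries (SD, n = 5 each). The groups did not overlap, and DESeq2 called it (adjusted p = 0.0432, edgeR adjusted p = 0.36). St6galnac4 had a difference of -0.26 on the log2 scale at an edgeR adjusted p of 0.49. St6gal2, the paralog of St6gal1, had 0 counts in all knockout libraries and at most 0.0769 CPM in a control library, and was not tested.

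Around the members, 35 counted genes lay within 1 Mb of Adipoq and 20 were tested, Adipoq and 7 members among them. Of the 20, 13 had higher and 7 had lower levels in knockout libraries, and their median difference was 0.18 (log2), or 0.07 without knockout library 6. None passed with edgeR, 3 were called by DESeq2, and the same number separated the groups, all higher in the knockout group. The members Eif4a2 and Rfc4 were among these. Of all genes with an adjusted p, DESeq2 called 1.41% (0.861% higher). The groups did not overlap for 1.91% of all tested genes (1.01% higher and 0.9% lower). Of the 13 that were no members, 7 were higher and 6 lower, with a median of 0.01, and 1 was called by DESeq2 and separated the groups. Within 3 Mb, 55 genes were tested, of which 29 were higher and 26 lower. There DESeq2 called 4 and edgeR called none, and the groups did not overlap for 4 higher genes and 1 lower gene. Besides the 3 genes within 1 Mb, the called gene was Clcn2, between 1 and 3 Mb from Adipoq. Its log2 fold change was 0.45 (DESeq2 adjusted p = 0.0116, edgeR adjusted p = 0.324), and its groups did not overlap. The lower gene was Fam131a, also beyond 1 Mb, with -0.43 (DESeq2 adjusted p = 0.0993, edgeR adjusted p = 0.4). Separation of the groups was thus not confined to the genes next to Adipoq.

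The third gene to separate the groups within 1 Mb was B630019A10Rik, a noncoding gene annotated as antisense, which lies 17.3 kb beyond Adipoq and ends shortly before St6gal1. It stood at 7.22, 7.94, 6.37, 5.01 and 11.9 CPM in knockout libraries 2 to 6. Values of control libraries 2 to 6 were 3.91, 3.88, 3.09, 4.64 and 4.28 CPM. Its mean was 7.69 ± 2.60 CPM in knockout and 3.96 ± 0.58 CPM in control libraries (SD, n = 5 each). On the log2 scale the difference was 0.96 (SE 0.22, edgeR adjusted p = 0.34, DESeq2 adjusted p = 0.0139), and 0.75 without knockout library 6. It overlaps BC106179 on the other strand, whose log2 fold change was 0.13, and reads of the pair cannot be told apart without the strand setting. Eif4a2, Rfc4 and B630019A10Rik lie on both sides of Adipoq, with their nearest ends 32.4, 18.8 and 17.3 kb from it. Adipoq between them had the smaller log2 fold change of 0.12. The midpoint of B630019A10Rik lies 47.6 kb from that of Adipoq. Masp1, a protease of the lectin pathway of complement 291 kb beyond Adipoq, had 1.08 with overlapping groups (edgeR adjusted p = 0.466). Tbccd1 and Dnajb11, on the far side of the liver-type genes, had -0.02 and -0.14.

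**Figure D5:**
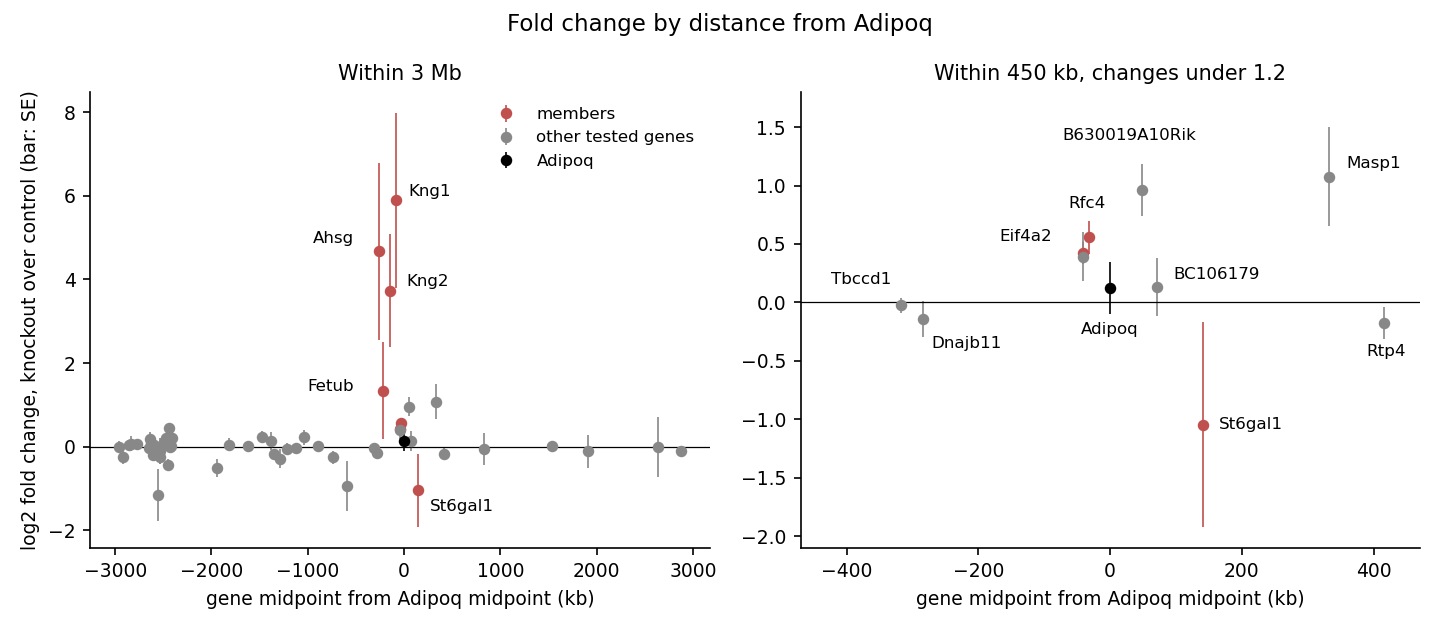
Log2 fold change of tested genes, knockout over control, against the distance of their midpoint from that of Adipoq in kb; bars are standard errors. The left panel shows the 55 genes within 3 Mb and the right one the genes nearer to Adipoq with smaller changes, where Eif4a2 (0.42), Rfc4 (0.56) and B630019A10Rik (0.96) lie above Adipoq (0.12).

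Among 20 genes of adipocyte identity, 19 had higher levels in knockout libraries, their median difference was 0.38 (log2), and DESeq2 called 3 while edgeR called none. Gpd1 and Acsl1, enzymes of glycerol phosphate and fatty acid activation, had 0.95 and 0.81 (edgeR adjusted p of 0.341 and 0.36). The list's summed level was 47290 to 65860 CPM in knockout libraries. Control libraries 3 and 6, where the epididymal list summed to 7847 and 11210 CPM, held 35610 and 30970 CPM, and the other controls held 53520 to 62850 CPM, inside the knockout range. The median difference was 0.27 without control library 3 and 0.25 without control library 6. Once the adipocyte score entered the fit, the log2 fold changes of Eif4a2 and Rfc4 were 0.48 and 0.55. Endothelial genes were lower in 12 of 12 cases, macrophage genes in 10 of 12 and progenitor and fibroblast genes in 9 of 12 (6 of 12 without control library 3), and of these 36 genes DESeq2 called 1, Cldn5, a tight junction gene (log2 fold change -1.20, edgeR adjusted p = 0.103). Sox18, Adgre1, Cd163, Pi16 and Ly6a had -0.69, -0.38, 0.37, 0.37 and -0.19, and the B cell gene Jchain had -0.43, none called by either tool.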

How the data were processed

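Total RNA of mouse epididymal fat was sequenced from 5 knockout and 5 control libraries after preparation with a stranded kit. Reads were aligned with STAR 2.5.2 to mm10, per the submitters' processing notes. The authors deposited raw counts per gene for each library. The counting tool and strandedness were not given in the sources used here.

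Symbols, positions and exon lengths came from GENCODE M21, and promoters from RefSeq on GRCm38.p6. Genes were kept by edgeR's filter (minimum count 10, minimum total 15), which left 16446 of 26040, and scaled by TMM. The groups were compared with edgeR 4.0.16 (quasi-likelihood test, R 4.3.3), with Benjamini-Hochberg adjustment over all tested genes and a threshold of 0.05. DESeq2 1.42.0 and limma-voom (limma 3.58.1) were alternatives, as were other scalings and filters, marker scores as covariates, the replicate block and leaving out libraries. DESeq2 gave neither a p nor an adjusted p to the tested liver-type members. The test was tried on simulated counts, and the outcome of that trial is not reported here. Library totals of 24182798 to 30603326 counts limit precision for the liver-type genes, and floors cover counting error only. Standard errors of log2 fold changes came from edgeR's fit, which also takes in the spread between libraries.

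The members and gene lists were chosen with earlier results of these data known. Named genes were the members, Adipoq, Sucnr1, Alb, the 4 tested genes with the smallest p within 1 Mb of Adipoq, up to 4 called genes (otherwise the 2 with the smallest p) of each list, and the 3 genes most correlated with each member; 2 genes that this rule names are not reported here. Paralogs and partners of members, Crisp1 and abundant liver-list genes were named beside these after their values were seen. So were other genes of the 1 Mb and 3 Mb windows, Masp1, Clcn2 and Fam131a among them.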

Additional observations from a re-analysis of the deposited data

Results flagged for a closer look

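Of 20 groups of 5 libraries examined, for 10 genes, 7 held a library far from the other 4, and chance gives about 1 in 20. That rate takes the groups as independent. The liver-type genes stood apart in the same library, so the 7 cannot be set against it. In knockout library 6, Kng1 stood at 225 CPM (0.491 to 2.41 in the other knockout libraries), Ahsg at 202 CPM (0.14 to 2.91), Kng2 at 69.09 CPM (1.07 to 2.70), Hrg at 29.89 CPM (0 to 0.647) and Fetub at 12.66 CPM (0.107 to 0.993). St6gal1 stood at 131.5 CPM in knockout library 3, with 21.47 to 36.79 CPM in the other knockout libraries. It stood at 350 CPM in control library 6, with 28.4 to 67.56 CPM in the other control libraries.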

How the results depend on the processing

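Eif4a2 kept its direction under all 22 alternatives (log2 fold change 0.37 to 0.48, adjusted p 0.000714 to 0.705), as did Rfc4 (0.45 to 0.62, 0.0175 to 0.705), and each passed the threshold with DESeq2 only. The count of all genes called was 10, against 213 with DESeq2 and 3 to 18 when 1 library was left out. DESeq2 called 2 members and 3 genes within 1 Mb, where edgeR called 0. Over the gene lists edgeR called 0, DESeq2 9, and 1 gene, Cldn5, was called with the adipocyte score, without knockout libraries 3 and 6 and control library 6, or without control library 6 (range 0 to 1 over single libraries left out). With the replicate number as a block, 4 genes were called and Fetub had -0.60. The numbers were not taken to pair the libraries: the labels tie them to nothing shared, the correlation of deviations was over 0.1 in 3 of 5 pairs (range -0.113 to 0.632), and 2 of 5 knockout libraries correlated best with their own number.

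Direction turned in 20 of the values for single genes, and the cause was not tested. With the adipocyte score St6gal1 had 0.66, Adipoq -0.25, Rfc5 0.37, Defb48 2.04 and Mcm2 0.027. Without control replicate 6, St6gal1 had 0.33, Adipoq -0.013 and Rfc5 0.034. Without knockout replicate 6, Fetub had -1.35, Ahsg -0.83, Alb -0.55 and Tat -0.27. Without knockout libraries 3 and 6 and control library 6, a setting chosen after seeing the data, as was the epididymal score, they had -1.93, -0.70, -0.50 and -0.33. With the liver score Fetub had -0.69 and Ahsg -0.18, and with limma-voom Fetub had -0.62. Over single libraries left out, the ranges were -1.84 to 0.33 for St6gal1, -1.35 to 1.66 for Fetub, -0.83 to 5.27 for Ahsg, -0.013 to 0.27 for Adipoq, -0.55 to 4.87 for Alb, -0.38 to 0.034 for Rfc5 and -0.27 to 4.34 for Tat.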

Other observations

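The introns of Eif4a2 hold snoRNA genes, of which 5 were in the count table. Of these, 4 had no count in any library. Gm24616 had 32, 44, 29, 37 and 27 counts in knockout libraries 2 to 6, and 21, 27, 25, 28 and 23 counts in control libraries 2 to 6. Its log2 fold change was 0.39 (not called by edgeR), and the groups overlapped.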
